A study of Mus musculus with 16 samples.

Results

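Transcript levels of 10 genes of the piRNA pathway were followed in mouse testis with and without Ythdc2, which encodes a helicase that recognises m6A-marked RNA and is needed for meiosis. The genes were taken by symbol from the 55414 gene rows of the deposited tables, and all 10 had 1 row in each table and passed the filters on low values in every comparison. They comprise the PIWI genes Piwil1, Piwil2 and Piwil4, the helicase genes Mov10l1, Ddx4 and Tdrd9, the genes of the mitochondrial surface proteins Pld6 and Asz1, and the genes of the nuage proteins Tdrd1 and Mael.

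The 16 libraries were of total testis RNA from mice at postnatal day 14 (P14) or day 16 (P16). The genotype labels are control, Cre control and, for the mutants, Ythdc2 conditional knockout (cKO), and the protocols give tamoxifen at 10 mg/ml on P12 and P13 for all of them. Neither the Cre line nor the floxed allele is named there, so the cells in which Ythdc2 was removed are not known from the sources used here. The first rRNA depletion kit, Ribo-Zero, was used for 2 control and 2 cKO libraries at each stage, sequenced in 1 run. The second, the NEBNext depletion kit, was used for 2 Cre control libraries at P14, 4 at P16, and cKO library 3 of each stage. With the second kit, Cre control P16 libraries 2 to 4 were in a different run from the rest, per the column names. Those names also mark the controls of the first kit as WT and the Cre controls as Ctrl. The labels do not say how many animals a library holds, so the p-values measure the spread between these libraries, which may be partly technical.

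piRNAs are small RNAs of the germ line that guide PIWI proteins to transposon transcripts and other targets. Their long precursors are selected by the helicase MOV10L1 and cut at the surface of mitochondria by PLD6, with ASZ1 as a scaffold there. The products are loaded into PIWI proteins in nuage, the granules between mitochondria that hold the helicases DDX4 and TDRD9, the Tudor protein TDRD1 and MAEL. In the mouse, PIWIL4 (MIWI2) works in the nucleus of fetal germ cells, PIWIL2 (MILI) is present from fetal germ cells to round spermatids, and PIWIL1 (MIWI) appears with the pachytene piRNAs of spermatocytes.

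Ythdc2 itself was lower in every cKO library. Its deposited values at P16 were 2666 and 2609 in the controls and 502 and 541 in cKO, and the cKO mean was 32.9% of the control mean at P14 and 19.8% at P16. Gene reads per library numbered 22220565 to 27531529 for Ribo-Zero and 14494867 to 23200252 for the second kit. The share of reads on genes was 46.6% in cKO P14 library 2 and 38.6% to 44.5% in the other first-kit libraries. Markers of germ cells and of Sertoli, Leydig, peritubular, macrophage and endothelial cells were all detected, with none of those measured at 0. The piRNA pathway genes were therefore measured in a mixed tissue, in which fewer cells of a type and less RNA per cell cannot be told apart.

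Promoter sequences are shown first because 7 of the 10 genes rose between the stages in controls, as described further on. The RefSeq table of GRCm38.p6 held windows of 300 bases, from 250 before to 50 after a transcription start, for 9 of the 10 genes, all but Piwil2. Of 10 short motifs searched on both strands, some of them nested in others, the palindromic E-box CACGTG was singled out after the counts were seen. It was present in a window of 7 of the 9 genes, namely Piwil1, Mov10l1, Mael, Pld6, Ddx4, Tdrd1 and Tdrd9. These are not the 7 genes that rose, since Mov10l1 did not pass that test and Piwil2, which did, has no window here. It was in a window of 8.09% of all 27025 genes with one. Some genes have several windows, and of all 32851 windows 7.15% held it, while of the 14281 windows with at least 10 CpG dinucleotides 10.9% did, whereas the matched windows of Piwil4 and Asz1 held none. Among 12 matched genes of a list of 20 other piRNA pathway genes, 2 had it (Dnmt3l and Fkbp6). A match describes letters only and shows neither a binding site nor a cause. Stretches of 100 bases are printed 5′ to 3′ on the gene's strand, with the E-box in capitals. Piwil1 and Tdrd9 each had a pair of E-boxes, Ddx4, Tdrd1 and Mael had a single E-box, and Piwil4 is shown for contrast.
Piwil1, chr5:128736046-128736145 of GRCm38.p6, plus strand: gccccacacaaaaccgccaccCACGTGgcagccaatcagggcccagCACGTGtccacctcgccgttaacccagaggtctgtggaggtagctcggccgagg
Tdrd9, chr12:111971379-111971478, plus strand: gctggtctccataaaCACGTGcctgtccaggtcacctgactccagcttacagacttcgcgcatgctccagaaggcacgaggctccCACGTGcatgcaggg
Ddx4, chr13:112652311-112652410, minus strand: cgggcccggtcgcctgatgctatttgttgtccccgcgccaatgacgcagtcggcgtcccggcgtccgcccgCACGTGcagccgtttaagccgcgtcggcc
Tdrd1, chr19:56826109-56826208, plus strand: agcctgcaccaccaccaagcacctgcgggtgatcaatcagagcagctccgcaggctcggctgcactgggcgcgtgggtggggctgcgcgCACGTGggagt
Mael, chr1:166238895-166238994, minus strand: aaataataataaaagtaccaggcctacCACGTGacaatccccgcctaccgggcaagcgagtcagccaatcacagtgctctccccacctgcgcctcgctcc
Piwil4, chr9:14740673-14740772, minus strand: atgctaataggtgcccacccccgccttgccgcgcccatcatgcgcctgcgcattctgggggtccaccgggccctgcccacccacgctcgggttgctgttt
The E-boxes of Piwil1 began 179 and 154 bases before the start, those of Tdrd9 165 and 95, and those of Ddx4, Tdrd1 and Mael 29, 11 and 223.

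Levels of different genes were compared as CPM (reads of a gene relative to all gene reads of its library, with TMM scaling within a kit) per kilobase of exon. In the first-kit controls at P16, Mael was highest, at 225.9 and 230.8 CPM per kb. It was followed by Ddx4 at 130.6 and 138.2, Piwil2 at 120.5 and 117.8, and Mov10l1 at 85.4 and 83.8. Piwil1, at 53.0 and 58.0, and Tdrd1, at 53.6 and 57.0, overlapped and had no order between them. Tdrd9 stood at 40.9 and 41.6, while Asz1 (21.0 and 20.8) and Pld6 (20.7 and 20.1) lay closer to each other than the Pld6 libraries did to one another. Piwil4 came last at 1.2 and 0.93 CPM per kb, so the nuclear PIWI gene was the least abundant of the 10 by a wide margin. In the 4 Cre controls at P16 with the second kit, Pld6 (31.0 to 40.9 CPM per kb) lay above Asz1 (12.6 to 16.1) without overlap, and Piwil2 (130.1 to 160.9) overlapped Ddx4 (111.4 to 156.1). Mael remained the highest there, at 169.4 to 245.0, and Piwil4 the lowest, at 0.62 to 1.13.

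**Figure D1:**
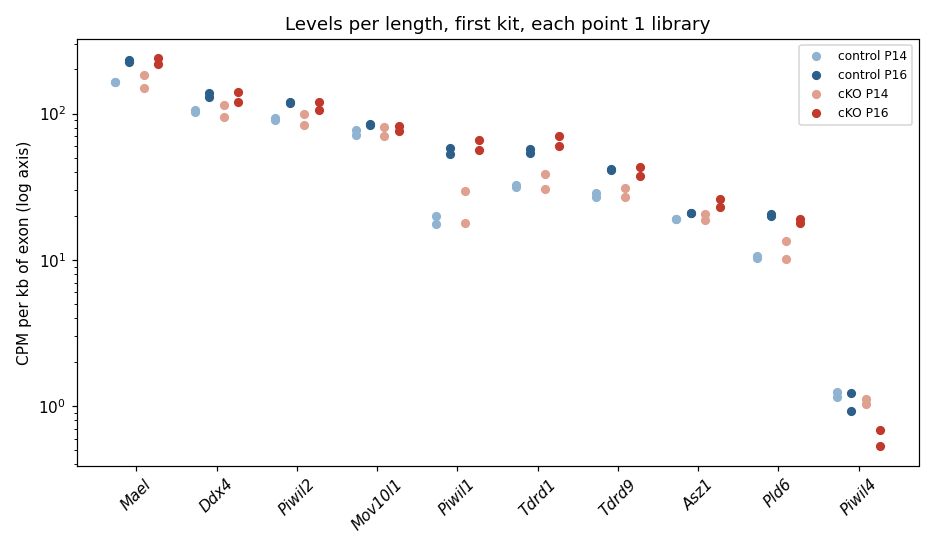
Level of each gene per exon length in the 8 first-kit libraries, on a log axis in CPM per kb of exon. Each point is 1 library, with controls in blue, cKO in red and paler shades for P14. Mael was highest and Piwil4 lowest in all 8, and the P16 points of Piwil1, Tdrd1 and Pld6 stood above their P14 points.

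The change from P14 to P16 in control testis was largest for Piwil1 among the 10 genes. Of the 10 genes 7 rose, Piwil1 by 1.56 on the log2 scale (SE 0.19, 2.95-fold), Pld6 by 0.95 (SE 0.11), Tdrd1 by 0.78 (SE 0.10), Tdrd9 by 0.57, Mael by 0.48, Piwil2 by 0.38 and Ddx4 by 0.38 (limma, adjusted p 0.0005 to 0.0176). None fell. Over all 17641 genes tested 20.9% were called (adjusted p under 0.05), 14.2% as higher and 6.71% as lower, and the median change was 0.43 over the 10 genes and -0.01 over all genes. Mov10l1 (0.19, adjusted p 0.0899), Asz1 (0.14, adjusted p 0.203) and Piwil4 (-0.16, adjusted p 0.549) did not pass.

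The values behind this were 76.9 and 87.4 CPM of Piwil1 in the P14 controls and 230.9 and 252.8 CPM in the P16 controls. Pld6 went from 18.2 and 18.7 CPM to 36.3 and 35.3 CPM, and Tdrd1 from 172.4 and 177.9 CPM to 291.7 and 310.4 CPM. In all 3 genes the stages were separated by far more than the gap between replicates. Piwil4, at 6.70 and 6.20 CPM and then 6.58 and 5.01 CPM, overlapped between the stages. Fits without a control library kept 1 in that group, and fewer of all genes were called in them. The rises of Piwil2 and Ddx4 were the least secure there. Their adjusted p-values reached 0.060 and 0.098 without control P14 library 1, 0.071 and 0.068 without control P16 library 1, and 0.051 and 0.121 without control P16 library 2, and that of Ddx4 was 0.057 without control P14 library 2. Summed markers of pachytene and later germ cells (7 of 8 measured, Piwil1 not among them) rose alongside, from 589.0 to 664.7 CPM at P14 to between 1400 and 1403 CPM at P16. Their part in the rise of the piRNA genes was not tested.

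The Cre controls of the second kit gave the same 7 calls, of the same 7 genes, in separate libraries. Piwil1 rose by 2.35 (SE 0.23, 5.11-fold), Tdrd1 by 1.14 (SE 0.15), Pld6 by 1.05 (SE 0.16), Tdrd9 by 0.76, Piwil2 by 0.66, Ddx4 by 0.59 and Mael by 0.56, where 11.8% of 18857 genes were called, 9.08% as higher and 2.72% as lower. Piwil1 was at 56.5 and 83.9 CPM at P14 and at 458.0, 311.2, 426.7 and 254.3 CPM at P16, so even the lowest P16 library was well above both P14 libraries. The 4 P16 libraries differed widely among themselves, and library 1 was in the run of the P14 libraries while the others were not. Within that run Piwil1 changed by 2.73, and in the other run by 2.23, with 1.41 and 1.05 for Tdrd1 and 1.27 and 0.98 for Pld6. Without Cre control P14 library 1, which left 1 P14 library, the calls of Piwil2, Mael, Ddx4 and Tdrd9 were lost. Calls over all genes became fewer in that fit as well. Mael and Ddx4 were also lost without Cre control P14 library 2 (0.067 and 0.055) and without Cre control P16 library 3 (0.10 and 0.063).

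A stage change was also measured without Ythdc2. In first-kit cKO testis 8 of the 10 genes rose, where 31.5% of all genes were called, 16.3% as higher and 15.2% as lower. Piwil1 rose by 1.42 (SE 0.19), Tdrd1 by 0.92 (SE 0.10), Pld6 by 0.65 (SE 0.11), Tdrd9 by 0.47, Mael by 0.46, Ddx4 by 0.31, Piwil2 by 0.31 and Asz1 by 0.30. Piwil4 fell by 0.83 (SE 0.18, adjusted p 0.0063), and Mov10l1 (0.07, adjusted p 0.463) did not pass. The cKO libraries held 77.6 and 128.4 CPM of Piwil1 at P14 and 246.9 and 287.8 CPM at P16. Piwil4 went from 5.53 and 6.07 CPM to 3.68 and 2.86 CPM, so the stages did not overlap in cKO as they did in the controls.

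Several of these cKO calls were lost when a library was left out, while the signs of the called genes were kept. Such fits kept 1 library in a group, and fewer of all genes were called in them. Without cKO P14 library 1 the changes of Piwil2 and Ddx4 were 0.19 and 0.18 (adjusted p 0.064 and 0.119). Without cKO P16 library 2 those of Piwil2, Ddx4, Asz1 and Piwil4 were 0.21, 0.20, 0.22 and -0.65, with adjusted p 0.127, 0.195, 0.080 and 0.056. Without cKO P14 library 2 Mov10l1 was called, at 0.18 (adjusted p 0.036). In cKO library 3, with the second kit and 1 library a stage, the differences were 2.14 for Piwil1, 1.00 for Tdrd1, 0.58 for Pld6, 0.43 for Asz1 and -0.75 for Piwil4. The change of Piwil4 was not particular to cKO there, since Cre control P16 library 1, of the same run, gave -0.77 against the P14 Cre controls. Cre control P16 libraries 2 to 4, of the other run, gave -0.09.

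**Figure D2:**
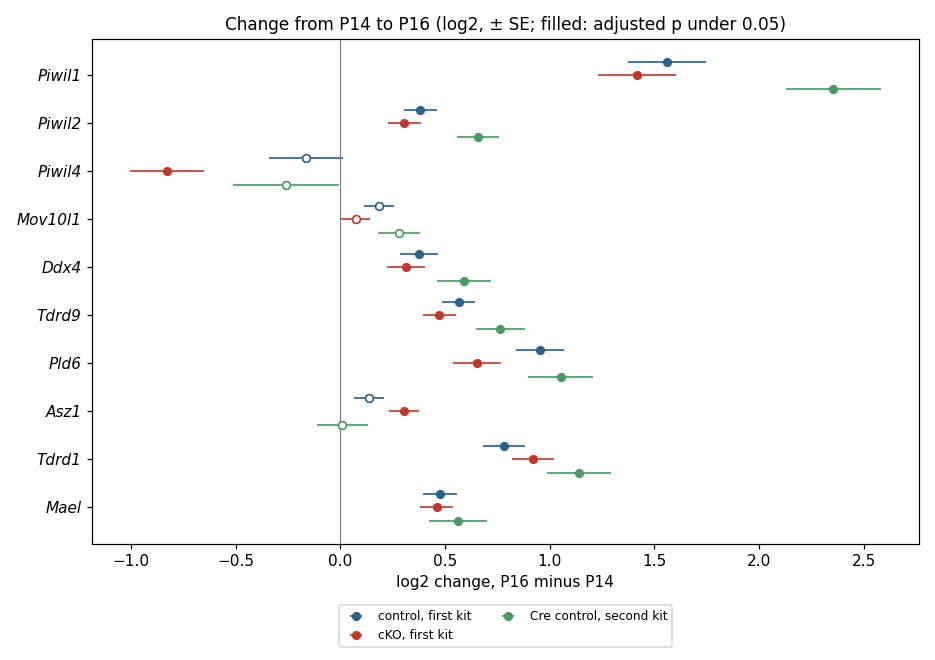
Change from P14 to P16 (log2, P16 minus P14) of each gene in controls (blue) and cKO (red) of the first kit and in Cre controls (green) of the second, with bars of ± 1 SE and filled points where the adjusted p was under 0.05. Piwil1 rose most in all 3, by 1.56, 1.42 and 2.35, and Piwil4 was below 0 in all 3 and called in cKO alone.

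The balance between the PIWI genes shifted with the stage. The ratio of Piwil1 to Piwil2 per kilobase was 0.20 and 0.22 in the P14 controls, and 0.44 and 0.49 in the P16 controls. In cKO it was 0.21 and 0.30 at P14 and 0.54 and 0.55 at P16. The Cre controls gave 0.14 and 0.20 at P14 and 0.43 to 0.65 at P16, and cKO library 3 gave 0.15 and 0.46. The Piwil2 transcript therefore exceeded that of Piwil1 in every library at both stages.

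At P14 the piRNA pathway genes showed no called difference between cKO and control, with 2 libraries a group. None of the 10 was called by limma, edgeR or DESeq2, and none had an unadjusted p under 0.05 in limma. Of 17270 genes 1 was called, which was Ythdc2 (0.00579% called, 410 genes at an unadjusted p under 0.05). That call of Ythdc2 was lost without control P14 library 1 (adjusted p 0.067) or 2 (0.261), with no filter (0.60) and without a trend in the variance model (0.665), with a difference of -1.52 to -1.68 in these fits. The differences ran from -0.15 for Piwil4 to 0.29 (SE 0.21) for Piwil1. Piwil4 held 161.5 and 149.5 in the controls and 134.0 and 146.6 in cKO, without overlap, a pattern not counted over all genes at P14. The deposited values of Piwil1 were 1854 and 2107 in the controls and 1879 and 3104 in cKO, so the groups overlapped and the mean difference came from cKO library 2. That library lay above cKO library 1 for all 10 genes, and without it the difference of Piwil1 was -0.07. Summed pachytene markers spanned 599.0 to 890.2 CPM in the same cKO libraries.

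At P16, with the first kit, Asz1 and Tdrd1 were called higher in cKO and Piwil4 lower. Thus 3 of 10 were called (limma), where 38.6% of 17986 genes were called, 18.6% as higher and 19.9% as lower. The share of the 10 was thus close to the share among all genes. The median difference was -0.05 over the 10 and 0.00 over all genes.

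Piwil4 showed the widest gap. Its deposited values were 170.4 and 129.5 in the controls and 96.1 and 73.5 in cKO, from 164, 137, 99 and 71 reads. The groups did not overlap, and the mean in cKO was 84.8 ± 15.9 (SD, n = 2) against 150.0 ± 28.9 (SD, n = 2), or 56.5%. The log2 difference was -0.81 (SE 0.18, limma adjusted p 0.0033), and it ran from -0.62 to -1.01 when a library was left out, called each time. Without a trend in the variance model it was not called (adjusted p 0.086), and neither were Asz1 (adjusted p 0.140) and Tdrd1 (adjusted p 0.175). Over both kits, with the kit as a covariate and controls and Cre controls pooled as the reference, Piwil4 was at -0.47 (limma adjusted p 0.194). An antisense gene and a pseudogene overlap Piwil4 on the opposite strand in GENCODE M21, and the strand setting of the counting is not given in the sources used here. A gene on the opposite strand also overlaps Piwil1 and Tdrd9 (4930553I04Rik and Rd3l), so their values may hold reads of it.

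Asz1, the mitochondrial scaffold gene, held 1540 and 1518 in the controls and 1685 and 1883 in cKO, a difference of 0.22 (SE 0.06, limma adjusted p 0.0111). Tdrd1, the Tudor scaffold gene of nuage, held 7550 and 8017 against 8523 and 9771, a difference of 0.23 (SE 0.06, limma adjusted p 0.0071). In both genes every cKO library lay above every control library, which held for 34.2% of all genes tested. The call of Asz1 was lost without control library 1 (adjusted p 0.053), without control library 2 (0.074) and, at 0.14, without cKO library 2 (0.060). That of Tdrd1 was lost without control library 1 (adjusted p 0.091), and the difference was 0.13, still called, without cKO library 2. Over both kits with the kit as a covariate, Asz1 was at 0.26 (adjusted p 0.055) and Tdrd1 at -0.03 (adjusted p 0.898).

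The other 7 genes were not called at P16. Pld6, the endonuclease gene, held 940.4 and 911.2 against 821.0 and 858.6 (-0.14, limma adjusted p 0.0944), and Mov10l1 held 9247 and 9053 against 8331 and 8792 (-0.10, limma adjusted p 0.0884). In both, the cKO libraries lay below the controls without overlap, as those of Piwil4 did, and 35.4% of all genes tested did so. Piwil1 held 5977 and 6528 against 6438 and 7403 (0.14, limma adjusted p 0.0829) and overlapped. Piwil2 (-0.08), Ddx4 (-0.05), Tdrd9 (-0.04) and Mael (0.003) overlapped as well, with SEs of 0.04 to 0.06. Which genes passed changed with the cKO library left out. Without cKO library 2, Piwil2, Ddx4, Mov10l1 and Tdrd9 were called lower, at -0.17, -0.16, -0.14 and -0.13, where 40.1% of all genes were called, and without cKO library 1 Piwil1 was called higher, at 0.25, where 35.1% were.

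**Figure D3:**
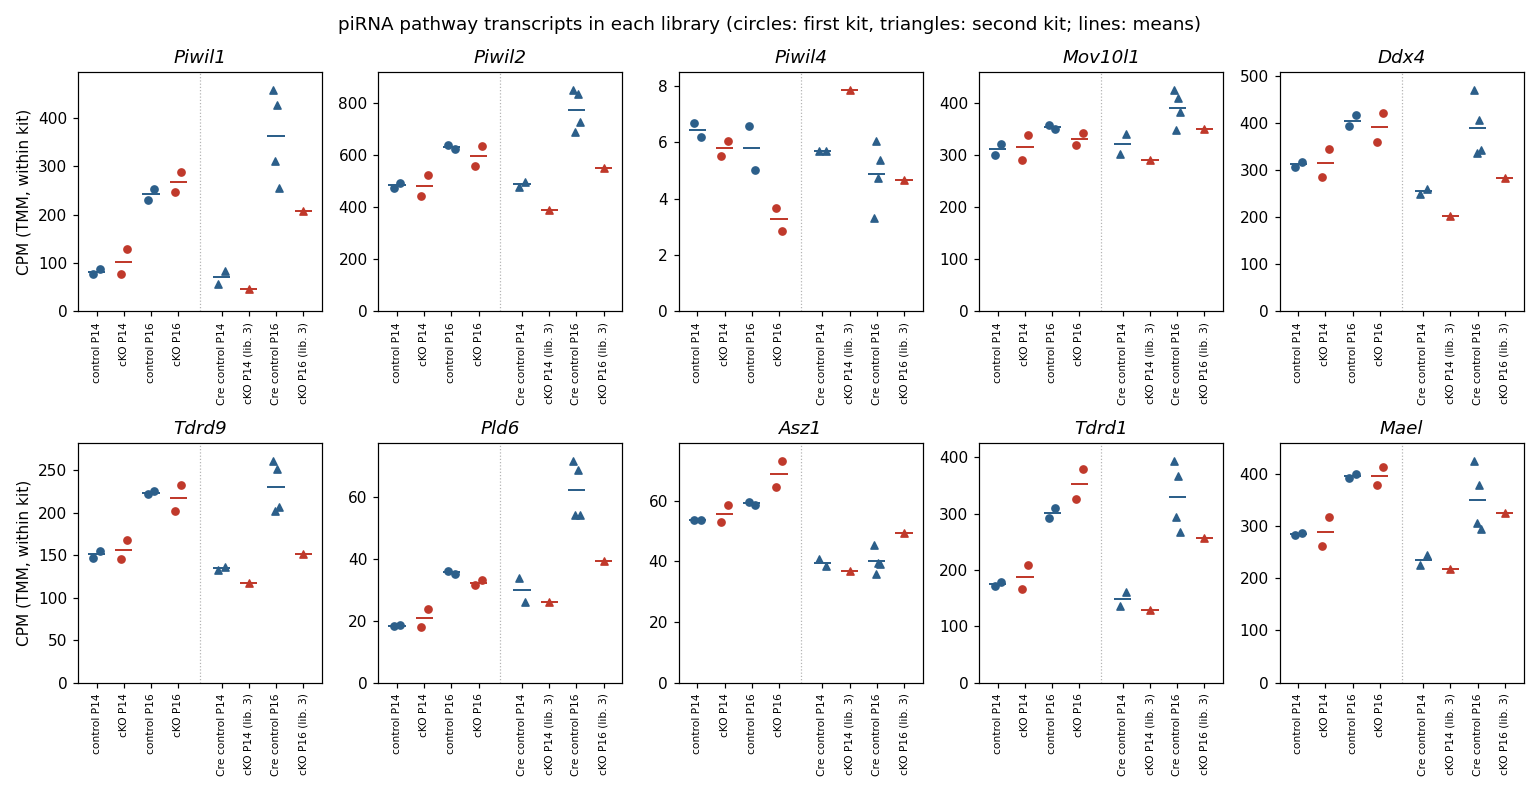
Level of each gene in each of the 16 libraries, in CPM with TMM scaling within a kit, with controls in blue, cKO in red, circles for the first kit, triangles for the second and lines at group means. Asz1 was above the controls of its kit in every cKO library at P16, Piwil1 rose from P14 to P16 in every group, and levels are not comparable between kits.

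Marker levels moved at P16 as well. Summed CPM in controls and cKO were 527.4 to 553.0 and 415.1 to 420.5 for spermatogonia (5 of 7 markers called lower, 1 higher), and 1741 to 1824 and 1350 to 1464 for early meiotic prophase (6 of 7 lower). They were 1400 to 1403 and 1504 to 1680 for pachytene and later cells (4 of 7 measured markers higher, 1 lower), and 732.9 to 749.3 and 799.7 to 888.9 for Sertoli cells (4 of 7 higher). Macrophage markers were at 85.0 to 89.5 and 113.2 to 113.6 (4 of 4 higher), and endothelial markers at 103.3 to 109.4 and 120.9 to 125.6 (2 of 4 higher). Leydig markers were at 160.2 to 170.1 and 187.6 to 213.3 (2 of 5 measured markers higher). Peritubular myoid markers were at 283.5 to 307.2 and 303.7 to 362.9 (1 of 4 higher). The groups overlapped in the peritubular myoid sum and in no other. Over all genes 18.6% were called higher and 19.9% lower. The part of these markers in the differences of the piRNA pathway genes was not tested.

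The comparison with Cre controls drew on both kits, since 2 of the 3 cKO libraries in it were made with the first kit and every Cre control with the second. At P14 none of the 10 genes was called by limma, edgeR or DESeq2 and none had an unadjusted p under 0.05 in limma, where 0 of 18196 genes were called by limma and 705 had such a p. Without cKO library 3, when all cKO libraries were of the first kit and all controls of the second and kit cannot be told apart from genotype, Asz1, Mael, Ddx4 and Tdrd9 were called higher, at 0.60, 0.40, 0.40 and 0.32, where 34.9% of 17924 genes were called.

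At P16, Asz1 was called higher in cKO and Pld6 lower, where 9.07% of 19200 genes were called, 4.30% as higher and 4.77% as lower. Asz1 held 894.2, 702.6, 784.7 and 777.0 in the Cre controls and 1380, 1552 and 955.6 in cKO libraries 1 to 3. The difference was 0.69 (SE 0.17, limma adjusted p 0.0493), and the cKO library of the controls' own kit, library 3, was the lowest of the 3 and still above every Cre control. Pld6 held 1412, 1070, 1368 and 1075 in the Cre controls and 672.4, 707.8 and 759.7 in cKO, a difference of -0.78 (SE 0.13, limma adjusted p 0.0367) without overlap between the groups. Piwil2 also stood below without overlap, at 13520 to 16721 in the Cre controls and 10626 to 13439 in cKO (-0.35, limma adjusted p 0.0737). Over all genes 13.2% lay above and 16.9% below without overlap.

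These calls depended on nearly every library. Leaving out any library but cKO library 3 brought the adjusted p of Asz1 to between 0.087 and 0.204 and that of Pld6 to between 0.072 and 0.191, and 0 genes of the whole table were then called. With the kit as a covariate Asz1 was at 0.28 (adjusted p 0.316) and Pld6 at -0.68 (adjusted p 0.125).

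The within-kit view of these genes is cKO library 3 against the Cre controls, which has 1 cKO library a stage. The fit with the kit as a covariate estimates this same difference, with its spread taken from the replicates of the other groups, and gave the adjusted p-values of 0.316 for Asz1 and 0.125 for Pld6 at P16. In the deposited values at P16, library 3 stood below every Cre control for 7 genes, Piwil1 (-0.80 on the log2 scale), Pld6 (-0.68), Tdrd9 (-0.63), Piwil2 (-0.52), Ddx4 (-0.48), Tdrd1 (-0.38) and Mov10l1 (-0.19), where 30.0% of all genes did so. It stood above for Asz1 (0.28), as did 24.0% of all genes, and within their range for Mael (-0.13) and Piwil4 (-0.06). Mov10l1 was only just below, at 6754 against 6833 in Cre control library 2, in a table scaled over both kits. In CPM scaled within the kit it lay inside the Cre control range, at 350.1 against 347.5 to 425.9. Against Cre control library 1, which shared its run, the values were -1.17 for Piwil1, -0.89 for Pld6, -0.64 for Tdrd1, 0.10 for Asz1 and 0.45 for Piwil4. At P14 library 3 was below both Cre controls for 8 genes, by 0.11 to 0.55, where 33.3% of all genes were below. Piwil4 was above there (0.46), as were 26.9% of all genes, and Pld6 was within (-0.19). The summed early prophase markers of library 3 at P14, 839.6 CPM, were also below the 1038 to 1067 CPM of the Cre controls, and their part in these differences was not tested.

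Set side by side at P16, the difference was above 0 with both kits for Asz1. It was below 0 with both kits for Piwil4, Pld6, Piwil2, Ddx4, Tdrd9 and Mov10l1. The first kit called only Asz1 and Piwil4 of these, and the second had 1 cKO library. With the first kit Piwil2, Ddx4 and Tdrd9 overlapped between the groups, and their sign changed with the library left out. How many of all genes had the same sign with both kits was not counted. Tdrd1 (0.23 and -0.38) and Piwil1 (0.14 and -0.80, not called) were higher with the first kit and lower in library 3 of the second. The difference of Piwil4 was -0.81 with the first kit and only -0.06 in library 3 of the second. That library held 90.0, within the range of 65.5 to 119.2 in the Cre controls, from 68 and 57 to 115 reads. In library 3 at P16 the summed early prophase markers, 939.4 CPM, lay near the lower end of the Cre control range of 937.2 to 1339 CPM, and the Sertoli markers, 1285 CPM, lay above the range of 997.8 to 1233 CPM. Macrophage markers, at 121.7 against 84.4 to 105.8 CPM, and endothelial markers, at 148.0 against 102.9 to 141.1 CPM, lay above as well. Within the Cre control range lay the markers of spermatogonia (536.9 in 470.1 to 573.1 CPM) and of pachytene and later cells (1191 in 1028 to 1924 CPM). So did those of Leydig (149.6 in 123.3 to 170.5 CPM) and peritubular myoid cells (330.1 in 274.2 to 370.0 CPM). Their part in these differences was not tested.

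**Figure D4:**
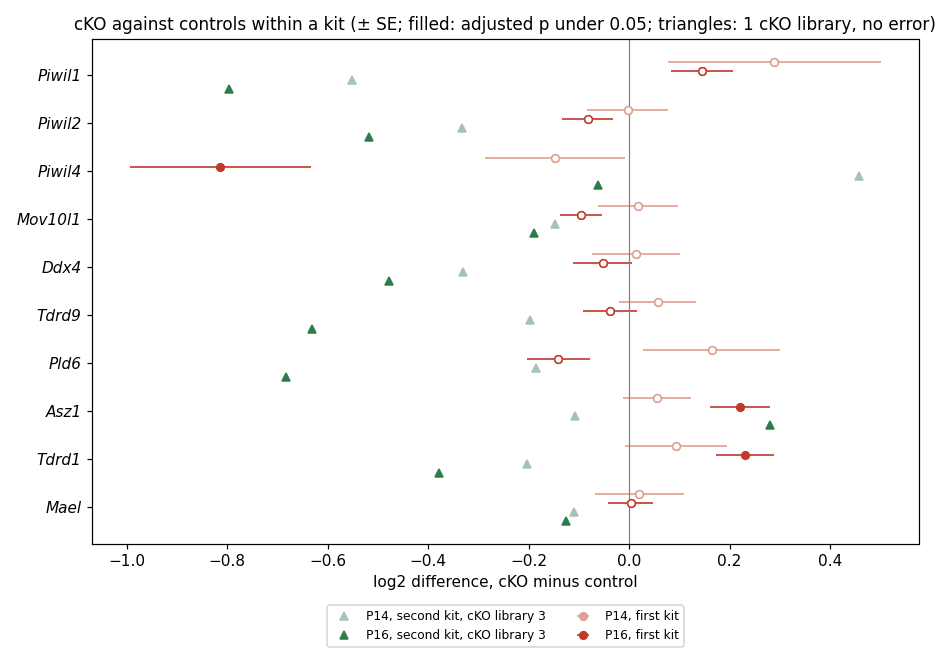
Difference between cKO and controls of the same kit (log2) at P14 (pale) and P16 (dark). Circles give the first kit with bars of ± 1 SE, filled where the adjusted p was under 0.05, and triangles give the single cKO library of the second kit, drawn with no error bar. At P16 Asz1 lay above 0 with both kits (0.22 and 0.28), and Tdrd1 lay on opposite sides (0.23 and -0.38).

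An interaction term over the 8 first-kit libraries tested whether the difference of cKO from control changed with the stage. None of the 10 genes was called by limma, edgeR or DESeq2, where 8.45% of 17641 genes were called by limma, 2.99% as higher and 5.46% as lower. Piwil4 was the only member with an unadjusted p under 0.05 in limma, with a difference of -0.66 between the stages (SE 0.25, adjusted p 0.128). Pld6 followed with -0.30 (SE 0.16, adjusted p 0.267), then Asz1 with 0.17 and Piwil1 with -0.14 (SE 0.26). Without cKO P14 library 1, Piwil1 (-0.51, adjusted p 0.017) and Pld6 (-0.50, adjusted p 0.010) were called, and of 17575 genes 1248 were then called higher and 1912 lower.

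Other genes of the pathway gave a wider view, from a list of 20. At P16 with the first kit 3 were higher in cKO and 7 lower, with a median of -0.05, where 18.6% of all genes were higher and 19.9% lower. The higher ones were Tdrd6 (0.53, SE 0.05), the gene of a Tudor protein of the chromatoid body, Mybl1 (0.38, SE 0.05), the gene of the transcription factor that drives pachytene piRNA precursors, and Tdrd5 (0.29, SE 0.06). The lower ones included Spocd1 (-0.90, SE 0.18) and Tex15 (-0.73, SE 0.04), whose proteins act with PIWIL4 in transposon methylation, and Pnldc1 (-0.43, SE 0.08), which trims piRNA 3′ ends. Btbd18 (-0.42), Gpat2 (-0.30), Fkbp6 (-0.19) and Rnf17 (-0.14) were also lower. Spocd1 held 88.9 and 99.8 in the controls and 47.6 and 52.8 in cKO, and Tex15 held 12593 and 13417 against 7812 and 7842. Over both kits with the kit as a covariate, Spocd1 was at -0.48 (adjusted p 0.175) and Tex15 at -0.17 (adjusted p 0.610). The call of Rnf17 was lost without either control library or cKO library 1, at which it was -0.06, and that of Fkbp6 without control library 2 (adjusted p 0.055).

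Tex15 went the opposite way against the Cre controls at P16, where it was the only gene of the list called, at 0.77 (SE 0.13, limma adjusted p 0.0367), where 9.07% of all genes were called. The Cre controls held 3116 to 3990 and cKO libraries 1 to 3 held 6398, 6465 and 4964, so library 3 of the same kit lay above the Cre controls too. This call was lost when any library other than cKO library 3 was left out (adjusted p 0.072 to 0.191) and with the kit as a covariate (0.52, adjusted p 0.131). Of the 20 genes none was called at P14 against either control type by limma, with 1 at an unadjusted p under 0.05 against controls and 0 against Cre controls. In the interaction Tex15 was called lower (-0.60, SE 0.06), as were 5.46% of all genes.

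Between the stages in controls, 11 of the 20 rose and none fell, with a median of 0.36, where 14.2% of all genes rose and 6.71% fell. Tdrd6 rose by 2.71 (SE 0.28), more than any of the 10 pathway genes above, followed by Tdrd5 (0.80), Tdrd12 (0.76), Tcfl5 (0.72), Henmt1 (0.65) and Gtsf1 (0.50). Tdrd7 (0.44), Mybl1 (0.38), Exd1 (0.38), Rnf17 (0.35) and Gpat2 (0.25) rose less, and the calls of Mybl1, Exd1, Rnf17, Gpat2, Gtsf1 and Henmt1 were each lost when 1 or more of the control libraries was left out. In cKO 9 rose, Tdrd6 again first at 2.82, and 4 fell, namely Spocd1 (-0.68), Tex15 (-0.66), Btbd18 (-0.41) and Fkbp6 (-0.12), where 16.3% of all genes rose and 15.2% fell. The falls of Spocd1 (without cKO P16 library 1) and Fkbp6 (whichever of the 8 libraries was left out) lost their call, as did the rises of Gtsf1 and Exd1 without cKO P14 library 1 or cKO P16 library 2. Of these 4 genes that fell, the interaction called Tex15 alone. In the Cre controls 5 rose, Tdrd6 (3.25), Tdrd5 (1.31), Tdrd12 (0.92), Tcfl5 (0.87) and Exd1 (0.64), and Tex15 fell (-0.73), where 9.08% of all genes rose and 2.72% fell. Without Cre control P14 library 1, Tcfl5, Tdrd12 and Exd1 lost their call.

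The AGO-clade Argonaute genes, whose proteins carry microRNAs and not piRNAs, served as a contrast. At P16 with the first kit all 4 were called, Ago2 higher (0.35, SE 0.05) and Ago4 (-0.43), Ago3 (-0.32) and Ago1 (-0.20) lower, where 38.6% of all genes were called. Ago1 was at 0.02 over both kits with the kit as a covariate, and its call was lost without either control library or cKO library 2. Against the Cre controls none was called by limma, with 2 at an unadjusted p under 0.05. Between the stages Ago4 rose in controls (0.62, SE 0.10), and in cKO Ago2 rose (0.26) while Ago1 (-0.31) and Ago3 (-0.24) fell. The cKO calls were lost for Ago1 and Ago2 without cKO P16 library 2, for Ago1 without cKO P14 library 1, and for Ago3 without cKO P16 library 1. The interaction called Ago2 higher (0.33, SE 0.08), a call lost without control P14 library 1 or 2, control P16 library 1 or 2, or cKO P16 library 2.

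The genes whose profile was nearest to those of the most abundant PIWI genes were sought among 5268 genes that varied over the 8 first-kit libraries. These had a standard deviation of log2 CPM of at least 0.3. Likeness was the root mean square difference of log2 CPM after centring each gene on its mean. For Piwil1 the nearest were Ropn1l (0.048), Gm41109 (0.054) and 1700010I14Rik (0.055). Piwil2 itself varied by less than that minimum, so genes as flat as Piwil2 were not searched. Among the genes searched, the nearest to Piwil2 were Cntd1 (0.098), Ccdc155 (0.105) and Wdr35 (0.105). The 8 libraries share a kit and a run, and the measure is a description.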

How the data were processed

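Total RNA of 16 testis libraries was depleted of rRNA with either of 2 kits, per the labels' protocols. The deposited values are a signal, read numbers of genes that the authors scaled by a factor per library, as the steps of the values show. They fill 4 separately scaled tables, 1 for each stage and type of control. The submitters' processing notes name Trim Galore, STAR, HTSeq, DESeq2 and the build GRCm39, and no versions. Whole reads were recovered from the steps of the values (100% of values whole within 0.01 in all 20 columns, with 0 columns unmatched to a sample). The 4 summary rows of unassigned reads were left out. cKO libraries 1 and 2 stand in both tables of a stage with identical reads and were counted once.

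Symbols came from GENCODE M21, which named 52081 of 55414 gene IDs, and exon lengths and overlaps are of that release. Within a table, limma 3.58.1 (R 4.3.3, eBayes with trend) was run on log2(value + 1) of genes reaching 10 in at least 2 libraries, so changes of low genes are understated. Stages were compared, and the interaction fitted, with limma on log2 CPM of the recovered reads (TMM, prior count 1, CPM of at least 0.5 in 2 libraries). P-values were adjusted by Benjamini-Hochberg over all genes of a fit, and genes under 0.05 are termed called. SEs are those of limma. edgeR 4.0.16 and DESeq2 1.42.0 on the recovered reads were alternatives, and at P16 against controls they called 3449 and 2302 genes higher and 3534 and 2339 lower. Other alternatives were pseudocounts of 0.1 and 10, other filters, TMM, median of ratios and quantile scaling, a prior count of 10 and eBayes without trend. A replicate block, the kit as a covariate, a fit over both kits, and leaving out each library were also used. The fit over both kits took controls and Cre controls together as the reference, on log2 CPM with TMM scaling, with the kit as a covariate.

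The genes, lists and tests were chosen with earlier results of these data known. Named are Ythdc2, the 10 genes, and those called in lists of 20 other piRNA pathway genes and of 4 AGO-clade genes. Also named are the 3 nearest profiles to Piwil1 and Piwil2 among the genes that varied enough to be searched. Promoter windows are those of RefSeq for GRCm38.p6, not the build of the authors' alignment.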

Additional observations from a re-analysis of the deposited data

Results flagged for a closer look

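Ythdc2 differed from control by more at P16 than at P14 in the first-kit libraries, and the difference between the stages was itself called. On the log2 scale it was -0.73 (SE 0.12, limma adjusted p 0.0078), with Ythdc2 at -1.60 in cKO at P14 and -2.34 at P16. It was not called without a trend in the variance model (adjusted p 0.078) or without control P16 library 1 (-0.72, adjusted p 0.053). None of the 10 piRNA pathway genes had a called difference of this kind in limma, and in 11 checks of the 4 Cre control libraries at P16 for a library far from the others 0 were found, where chance gives about 1 in 20.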

How the results depend on the processing

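The replicate numbers are not said in the labels to mark a shared animal, litter or day. With 2 numbers per group the deviations of same-numbered libraries correlated by 0.19 between P14 control and cKO, by 0.089 between P16 control and cKO, and by -0.022 to 0.087 between the other groups, so the numbers were not taken to pair the libraries. With the replicate number as a block, 2 genes of the pathway in place of 1 were called lower at P16 against controls. Mov10l1 was added (limma adjusted p 0.041), and Piwil1 was called higher (limma adjusted p 0.002). The block called 45.6% of 17986 genes there, 3992 as higher and 4208 as lower, against 38.6% without it. With the block 6 in place of 0 were called higher at P14 against Cre controls, where 38.3% of 18196 genes were called, 2876 as higher and 4090 as lower. Piwil2 was at 0.082 there and Mov10l1 at 0.073. The blocked fit at P16 against Cre controls called 0 higher and 0 lower, with Tdrd1 at -0.075, where it called 0 of 19200 genes. The block leaves cKO library 3 at P14 without a partner among the Cre controls. The blocked fit at P14 thus compares cKO libraries 1 and 2 of the first kit with Cre controls of the second. Kit cannot be told apart from genotype in it.

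Counts of pathway genes called were the same or within 1.5 times in 215 of 252 combinations of comparison, direction and alternative. At P16 against controls, 0 were higher and 0 lower without a trend in eBayes, where 10.0% of all genes were called. The same held over both kits with the kit as a covariate, where 14.2% were called. At P16 against Cre controls, 0 were higher with a pseudocount of 0.1, with no filter, without a trend and with the kit as a covariate. The shares of all genes called were then 7.64%, 2.71%, 0.167% and 0.00521%. In that comparison 0 were lower without a trend and with the kit as a covariate. DESeq2 called 2 lower there, where it called 21.6% of all genes. In cKO between the stages 5 rose without a trend, where 24.3% of all genes were called. Leaving out a library gave 0 to 3 higher and 1 to 5 lower at P16 against controls, 0 to 4 higher at P14 against Cre controls, and 0 to 1 higher and 0 to 1 lower at P16 against Cre controls. It gave 0 to 2 lower in the interaction, 5 to 9 higher and 0 to 1 lower in cKO between the stages, and 3 to 7 higher in Cre controls between the stages. The 4 higher at P14 against Cre controls came without cKO library 3, where 34.9% of 17924 genes were called and kit cannot be told apart from genotype. The causes were not tested.

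Signs changed in 76 of 2177 values of single genes, among which Tdrd1 and Ago1 at P16 against controls were the ones called. Over both kits with the kit as a covariate, P14 cKO against controls gave -0.053 for Piwil1, 0.088 for Piwil4, -0.055 for Mov10l1, -0.038 for Mael, -0.016 for Asz1, -0.13 for Ddx4, -0.032 for Tdrd1 and -0.051 for Tdrd9. P16 gave -0.27 for Piwil1, -0.046 for Mael, -0.032 for Tdrd1 and 0.017 for Ago1. With the kit as a covariate, P14 against Cre controls gave -0.55 for Piwil1, -0.11 for Mael, -0.11 for Asz1, -0.33 for Ddx4, -0.20 for Tdrd1 and -0.20 for Tdrd9, and P16 gave -0.13 for Mael and -0.38 for Tdrd1. Quantile normalization gave 0.13 for Piwil2 and 0.079 for Mov10l1 at P14 and 0.053 for Ddx4 at P16 against Cre controls, and moved the median of all genes at P16 from -0.04 to 0.10. At P14 against Cre controls Mov10l1 was at 0.0045 with TMM scaling, 0.0072 with edgeR and 0.0042 with DESeq2. With a CPM minimum of 5, Mael in the interaction was at 0.0074.

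Leaving out a library at P14 against controls gave ranges of -0.073 to 0.65 for Piwil1, -0.12 to 0.11 for Piwil2, -0.088 to 0.12 for Mov10l1, -0.12 to 0.16 for Mael, -0.013 to 0.12 for Asz1, -0.036 to 0.36 for Pld6, -0.12 to 0.15 for Ddx4, -0.068 to 0.25 for Tdrd1 and -0.043 to 0.16 for Tdrd9. At P16 they were -0.17 to 0.0011 for Piwil2, -0.050 to 0.055 for Mael, -0.16 to 0.052 for Ddx4 and -0.13 to 0.053 for Tdrd9. Against Cre controls at P14 they were -0.14 to 0.64 for Piwil1, -0.19 to 0.082 for Piwil2, -0.092 to 0.076 for Mov10l1 and -0.031 to 0.40 for Ddx4, and at P16 -0.23 to 0.13 for Ddx4, -0.13 to 0.22 for Tdrd1 and -0.35 to 0.032 for Tdrd9. In the interaction they were -0.51 to 0.22 for Piwil1, -0.20 to 0.043 for Piwil2, -0.16 to 0.13 for Mael, -0.20 to 0.071 for Ddx4, -0.024 to 0.30 for Tdrd1 and -0.19 to 0.0094 for Tdrd9. Between the stages they were -0.36 to 0.031 for Piwil4 in controls, -0.034 to 0.18 for Mov10l1 in cKO and -0.053 to 0.063 for Asz1 in Cre controls. Where a group kept 1 library, that library was assumed to vary like the others.

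The counts over all genes moved too. At P16 against controls 741 genes were higher and 1065 lower without a trend, 2302 and 2339 with DESeq2, and 1230 and 1508 over both kits. At P16 against Cre controls, beside 825 higher and 916 lower, quantile normalization gave 1795 and 1299, edgeR 1029 and 528, DESeq2 2113 and 2027, a pseudocount of 10 1283 and 1994, no filter 420 and 497, no trend 18 and 14, the block 0 and 0, and the kit covariate 0 and 1. At P14, DESeq2 called 3 and 3 against controls and 2 and 3 against Cre controls, and the block 2 and 3, and 2876 and 4090. The interaction called 122 and 605 with no filter, 33 and 151 with no trend and 955 and 1394 with the block. Between the stages no filter gave 2061 and 682 and no trend 1704 and 607 in controls, DESeq2 gave 1833 and 774 in controls and 2058 and 1773 in cKO, and no trend 793 and 110 and the block 1470 and 236 in Cre controls. Depth limited Piwil4 most, with 57 to 166 reads a library, and groups of 2 libraries limited every test with the first kit.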
